A study of Mus musculus with 16 samples.

Results

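The collagen genes of sorted mouse bone marrow stromal cells were taken as every row of the count table whose symbol is Col, a type number, the letter a and a chain number. This gave 44 genes of 52459. By the build of their proteins they were sorted into 11 fibrillar, 6 basement membrane, 9 FACIT, 6 microfibrillar (collagen VI), 3 network-forming, 4 transmembrane and 2 multiplexin genes, the anchoring fibril gene Col7a1, and Col26a1 and Col28a1 as others. RNA sequencing compared 4 SS with 4 SA libraries of Townes mice, a model of sickle cell disease in which human globin genes stand in for the mouse ones. SS mice were homozygous (hα/hα::βS/βS), with the human α-globin gene and with the human Aγ-globin and sickle β-globin genes in place of the mouse major and minor β-globin genes. SA mice were heterozygous (hα/hα::βA/βS), with the same human α-globin gene, 1 sickle copy and the normal human β-globin gene, so that both genotypes carried human α-globin and a sickle allele. Cells were taken by flow sorting as live single CD45-, Ter119-, CD31-, CD51+ and CD140a+ cells, and the labels used here give no age.

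Collagens are triple helices of 3 chains, which come from the same gene or from different genes, and they are the main protein of the extracellular matrix. Fibrillar collagens bear load in bone, tendon and cartilage, collagen IV is the sheet of basement membranes around vessels, FACIT collagens sit on the surface of fibrils, collagen VI forms beaded filaments around cells, and collagens VIII and X form hexagonal nets. In marrow, stromal cells of the CD51+ CD140a+ gate include the precursors of bone-forming osteoblasts, whose matrix is mostly collagen I.

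Each of the 8 libraries was sequenced on 2 lanes and had 24797857 to 31117007 counts. Beyond their numbering, no label says that replicates are separate animals. If they are not, a p-value covers no more than the spread among these 8 libraries, which may be technical. Titles also hold numbers that look like dates and differ between SS and SA libraries, so that whatever they stand for and genotype cannot be told apart. A lane of SS replicate 4 is called SA in some of its labels and SS4 in its title, and was kept in SS. SS replicate 2 alone among the SS libraries has its own such number. It also stood apart in sex: it had 57347 counts of Xist, against at most 420 in each other library, and 12 counts of the Y-linked Ddx3y, against at least 2282. The sorted antigens were present in every library, with Pdgfra (CD140a) at 421 ± 64.7 CPM in SS and 337 ± 148 CPM in SA, and Itgav (CD51) at 582 ± 181 CPM in SS and 329 ± 85.2 CPM in SA (SD, n = 4 each). RNA of gated-out leukocytes was also present. The summed level of 15 pan-leukocyte genes was 341 to 2720 CPM in SS libraries and 775 to 4631 CPM in SA libraries, and all 15 had a lower fitted level in SS. It was highest in SA replicates 2 and 1 and in SS replicate 1. CPM are counts scaled to TMM-adjusted library totals, and libraries are listed below in the order of their replicate numbers. In bulk samples such as these, fewer cells of a type and less RNA per cell cannot be told apart.

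The summed level of collagen transcripts differed between genotypes by less than the spread of the replicates, while every SS library had a smaller fibrillar share of that sum than any SA library. Collagen genes took 0.941, 2.05, 1.47 and 1.80% of all counts in SS libraries, against 0.645, 1.13, 2.52 and 1.59% in SA libraries. Summed per length, in CPM per kb of transcript, they came to 2697 ± 1025 in SS and 2515 ± 1429 in SA (SD, n = 4 each), and the groups overlapped almost fully. Fibrillar collagens made up 59.6, 66.9, 61.2 and 64.2% of that sum in SS libraries, against 68.4, 84.2, 87.6 and 79.5% in SA libraries. Every SS library was below every SA library, with means of 63.0 ± 3.22% in SS and 80.0 ± 8.40% in SA. FACIT collagens made up 7.61, 7.48, 10.6 and 5.71% in SS libraries and 4.53, 3.04, 2.33 and 3.93% in SA libraries, again without overlap. Nearly all of this class was Col12a1, at 5.17 to 9.72% of the sum in SS and 1.98 to 3.73% in SA libraries, and the other FACIT genes made up 0.416 to 0.880% in SS and 0.345 to 0.804% in SA libraries, with overlap. Collagen VI averaged 12.5 ± 2.33% in SS and 7.72 ± 3.30% in SA, network collagens 9.32 ± 3.09% in SS and 5.11 ± 2.84% in SA, and basement membrane collagens 5.95 ± 2.03% in SS and 2.87 ± 1.16% in SA. In these 3 classes the groups overlapped. Shares sum to a whole in each library and are scores over the members, so they are given without a test.

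**Figure D1:**
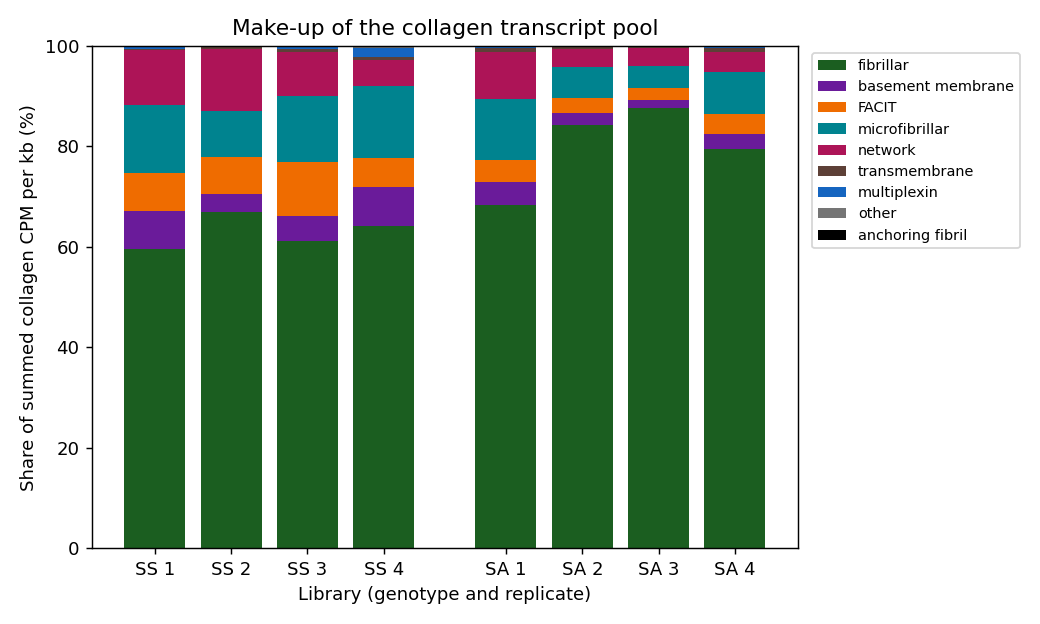
Share of each collagen class in the summed collagen level (%, from CPM per kb of transcript) in the 4 SS libraries (left) and the 4 SA libraries (right), stacked by class. The fibrillar block ends at 59.6 to 66.9% in SS libraries and at 68.4 to 87.6% in SA libraries.

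No collagen gene passed edgeR's quasi-likelihood test after Benjamini-Hochberg adjustment over all genes (threshold 0.05). Of the 44 members, 34 had enough counts to be tested, and the smallest adjusted p among them was 0.295. By the same test 0 of 17316 genes were called (0%), with a smallest adjusted p of 0.148. Before adjustment, 12 collagen genes had p under 0.05 and a higher level in SS, where 4.03% of all tested genes did, and 0 had p under 0.05 and a lower level, where 2.96% did. In 5 members (Col3a1, Col4a1, Col4a2, Col12a1 and Col18a1) the lowest SS library was above the highest SA library, which held for 2.36% of all tested genes. The reverse was seen in 0 members and in 1.55% of tested genes. The fitted level was higher in SS for 23 and lower for 11 of the 34, where 49% of all tested genes were higher, and the median log2 fold change was 0.89, against -0.01 over all tested genes. DESeq2, run on the same counts, called 6 of 36 members higher in SS at an adjusted p under 0.05 and 0 lower, against 0.914% of genes called higher and 0.704% called lower. Those 6 were Col3a1, Col4a2, Col6a4, Col7a1, Col12a1 and Col18a1. limma-voom called 0 members, and 11 had an unadjusted p under 0.05 there. With the summed leukocyte level as a covariate, 19 of the 34 were higher in SS and the median log2 fold change was 0.23. The sign turned for Col5a2 (-0.073), Col5a3 (-0.11), Col16a1 (-0.031), Col8a2 (-0.77), Col15a1 (-0.72) and Col4a5 (0.58), so the direction given for these genes below holds without that covariate.

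**Figure D2:**
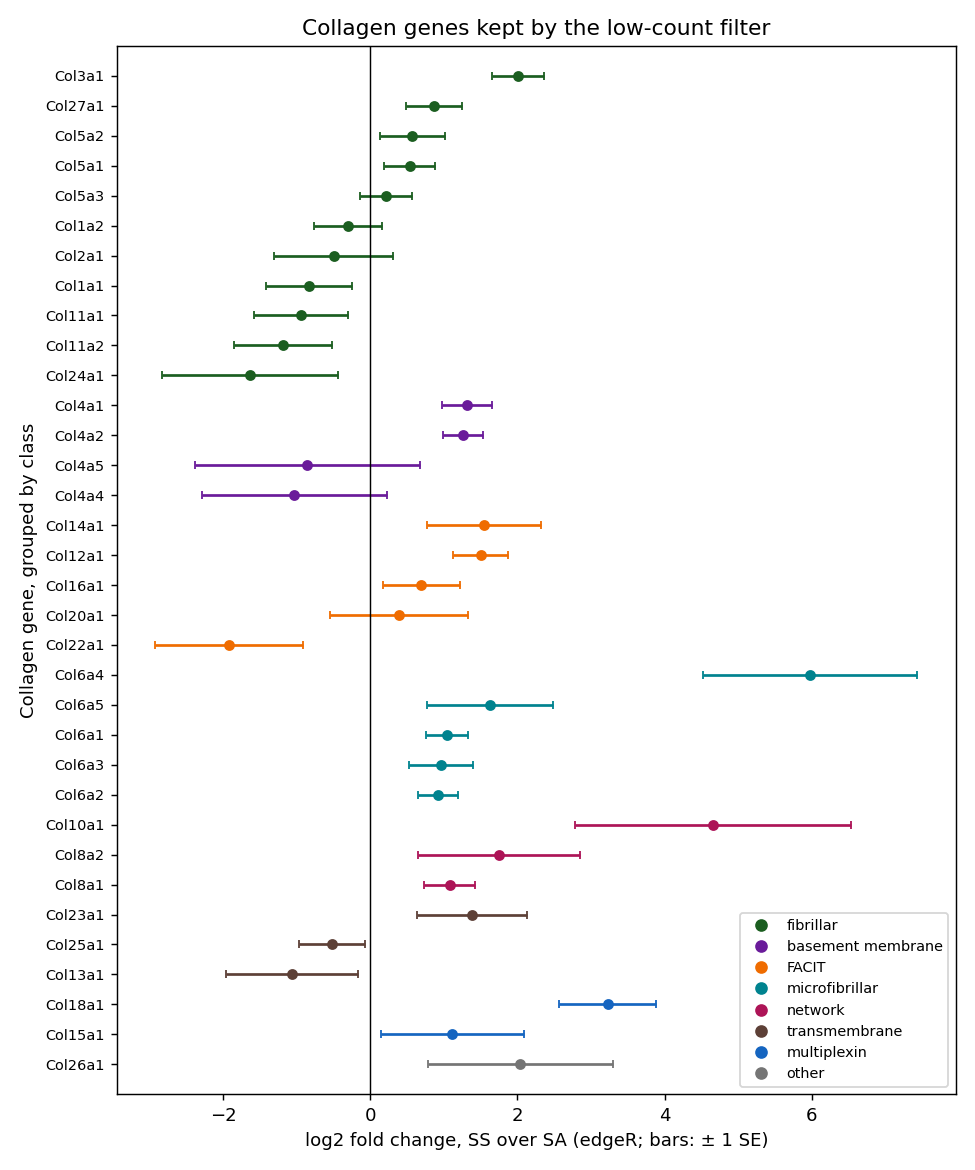
Log2 fold change (SS over SA, edgeR) of the 34 collagen genes kept by the low-count filter, grouped by class; bars are ± 1 SE. All 5 tested collagen VI genes and all 3 network genes lie above 0, and the fibrillar genes lie on both sides, from 2.0 for Col3a1 to -1.64 for Col24a1.

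The stretches before the transcription start of 4 members are shown because these genes stand for the different patterns described below. Col3a1 is, per length, the most abundant of the genes whose groups did not overlap, Col8a1 is the most abundant network collagen, Col11a1 is a cartilage and bone collagen with a lower fitted level in SS, and Col10a1 was high in a single library. Each is the 250 bases before the start in RefSeq, build GRCm38.p6, read 5′ to 3′ on the strand of the gene. Capitals mark TATAAA (the TATA box), CCAAT and GGGCGG (the GC box) on either strand, and the motifs do not overlap each other. The windows are chr1:45311288-45311537 on the plus strand for Col3a1, chr16:57754738-57754987 on the minus strand for Col8a1, chr3:114030290-114030539 on the plus strand for Col11a1 and chr10:34389731-34389980 on the plus strand for Col10a1.
Col3a1: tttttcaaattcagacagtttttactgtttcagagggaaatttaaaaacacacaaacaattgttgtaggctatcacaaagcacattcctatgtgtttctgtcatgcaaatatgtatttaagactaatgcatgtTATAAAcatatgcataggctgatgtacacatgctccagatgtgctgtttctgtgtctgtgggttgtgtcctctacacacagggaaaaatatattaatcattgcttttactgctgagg
Col8a1: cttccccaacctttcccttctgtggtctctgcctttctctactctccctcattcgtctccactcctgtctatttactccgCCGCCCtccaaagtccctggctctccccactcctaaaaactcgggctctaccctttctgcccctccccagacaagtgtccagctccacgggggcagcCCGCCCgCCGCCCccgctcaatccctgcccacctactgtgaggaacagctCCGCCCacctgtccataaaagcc
Col11a1: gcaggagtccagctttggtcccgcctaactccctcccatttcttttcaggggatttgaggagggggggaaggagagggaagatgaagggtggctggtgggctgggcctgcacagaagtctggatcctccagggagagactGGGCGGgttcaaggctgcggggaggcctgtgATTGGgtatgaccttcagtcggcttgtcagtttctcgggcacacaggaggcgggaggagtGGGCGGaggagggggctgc
Col10a1: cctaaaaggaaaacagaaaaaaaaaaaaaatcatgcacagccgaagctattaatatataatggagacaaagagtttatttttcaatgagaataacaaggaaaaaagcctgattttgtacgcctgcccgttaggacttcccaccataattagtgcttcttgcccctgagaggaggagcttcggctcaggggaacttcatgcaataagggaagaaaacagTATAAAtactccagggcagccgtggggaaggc
TATAAA begins 32 bases before the start of Col10a1 and 117 bases before that of Col3a1. The window of Col8a1 holds GGGCGG 4 times, each on the opposite strand, where it reads CCGCCC. That of Col11a1 holds it at 110 and 19 bases before the start, and CCAAT on the opposite strand at 79. Of all 32851 such windows in the table, 12.4% hold TATAAA, 33.8% CCAAT and 32.7% GGGCGG. Among 38 windows of 35 collagen genes the counts were 5, 13 and 22. These matches describe letters in the windows and no binding was measured.

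Among the fibrillar genes, Col3a1 stood out. It encodes the single chain of collagen III, which is mixed with collagen I in skin, vessel walls and the reticular fibres of marrow. Col3a1 had 970.3, 876, 1543 and 2309 CPM in SS libraries, against 225, 492, 301 and 402 CPM in SA libraries. The lowest SS library was above the highest SA library, and the ratio of the means was 4.01. Its log2 fold change was 2.0 (SE 0.36, edgeR adjusted p = 0.295, DESeq2 adjusted p = 0.000416). Without each library in turn the log2 fold change was 1.67 to 2.20, and it was 1.79 with the leukocyte level as a covariate. The gene lies at chr1:45311538-45349706 on the plus strand of GRCm38, tail to tail with Col5a2 at a gap of 24614 bases. Col5a2, an alpha chain of collagen V that starts and limits the width of collagen I fibrils, had 206, 475, 359 and 502 CPM in SS and 96.7, 159.6, 452 and 328 CPM in SA libraries. The groups overlapped, at a log2 fold change of 0.57 (SE 0.45, edgeR adjusted p = 0.810) that ran from 0.29 to 0.98 without each library in turn.

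Collagen I, the heterotrimer of bone, was the most abundant collagen per length in both genotypes and was not higher in SS. Col1a1, its main chain, had 1181, 5088, 2072 and 2766 CPM in SS libraries, against 1143, 3804, 9907 and 4879.7 CPM in SA libraries. Col1a2, the partner chain, had 1943, 6727, 4147 and 4527 CPM in SS libraries, against 2186, 3862, 9615 and 5704 CPM in SA libraries. For both chains replicate 1 was lowest in each genotype and SA replicate 3 was the highest of all, and the groups overlapped. The log2 fold changes were -0.83 for Col1a1 (SE 0.58, edgeR adjusted p = 0.787) and -0.30 for Col1a2 (SE 0.46, edgeR adjusted p = 0.923), and without SA replicate 3 they were -0.25 and 0.13. With the leukocyte covariate they were -1.68 and -1.0. As a share of the summed collagen level, Col1a2 took 25.9, 32.5, 30.6 and 28.4% in SS libraries and 39.2, 38.4, 41.0 and 38.8% in SA libraries. No SS library reached the lowest SA share. Per length, there was 1.14, 5.45, 1.26 and 1.12 times as much Col1a1 as Col3a1 in SS libraries, and 4.76, 7.26, 30.9 and 11.4 times as much in SA libraries. SS replicate 2, the library that stood apart in sex, was the only SS library within the SA range of this ratio. The 13 osteoblast and osteocyte markers had a summed level of 3834 to 13520 CPM in SS and 4609 to 20400 CPM in SA libraries. Of that level, Spp1 alone averaged 6526 CPM in SS and 6935 CPM in SA. In SS 10 of 13 were lower, where 49% of all tested genes were higher. With edgeR unadjusted p under 0.05, 4 were lower and 0 higher, where 2.96% and 4.03% of all tested genes were, and 0 passed the adjusted threshold. The part of these markers in these collagen I values was not tested.

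**Figure D3:**
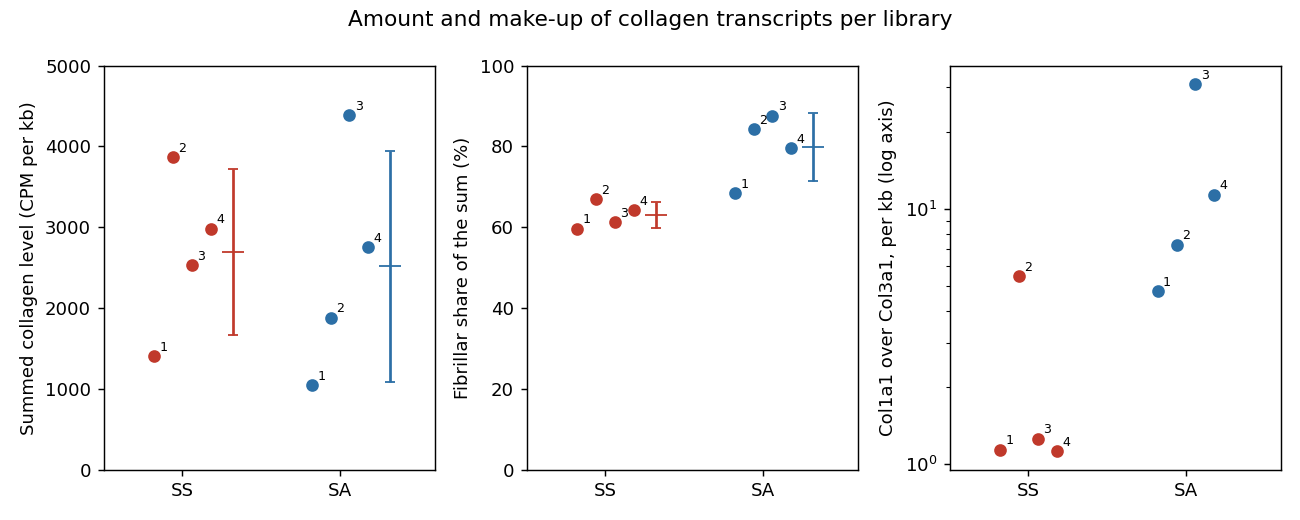
Summed collagen level (CPM per kb of transcript), fibrillar share of that sum (%) and ratio of Col1a1 to Col3a1 per kb (log axis) in each library; digits are replicate numbers, and bars are mean ± SD of 4 libraries. The sums overlap, the fibrillar shares do not, and the ratio is under 1.3 in 3 SS libraries and at least 4.76 in every SA library.

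Of the other fibrillar genes, the chains of collagen V and Col27a1 had higher means in SS, and Col2a1, Col11a1, Col11a2 and Col24a1 had lower ones. Col5a1, the main chain of collagen V, had 267, 580.5, 404 and 475 CPM in SS libraries and 159, 228, 327 and 477 CPM in SA libraries. The groups overlapped, since SA replicate 4 was as high as SS replicate 4, and the log2 fold change was 0.54 (SE 0.34, edgeR adjusted p = 0.768), 0.32 to 0.86 without each library in turn. Col27a1, a long fibrillar chain of cartilage, had 65.8, 157, 88.4 and 59.6 CPM in SS libraries and 44.3, 27.3, 73.4 and 58.5 CPM in SA libraries. SS replicate 2 was highest and the groups overlapped, with a log2 fold change of 0.87 (SE 0.38, unadjusted p = 0.043, edgeR adjusted p = 0.695) that was 0.49 without SS replicate 2. Col5a3 averaged 47.6 ± 20.3 CPM in SS and 41.0 ± 11.1 CPM in SA. Col2a1, the collagen of cartilage, averaged 142 ± 181 CPM in SS and 200 ± 137 CPM in SA (log2 fold change -0.50). Col11a1 and Col11a2, which pair with it in cartilage and are also made by bone cells, averaged 183 ± 169 and 29.7 ± 18.2 CPM in SS and 349 ± 253 and 67.5 ± 55.2 CPM in SA (log2 fold changes -0.93 and -1.19). Col24a1, a fibrillar chain of developing bone, averaged 4.99 ± 6.47 CPM in SS and 15.5 ± 19.2 CPM in SA (log2 fold change -1.64). In these last 4 genes SA replicate 3 was the highest SA library, and the groups overlapped. Without each library in turn the log2 fold change ran from -1.94 to -0.09 for Col2a1, -1.81 to -0.37 for Col11a1, -1.51 to -0.48 for Col11a2 and -3.06 to -0.31 for Col24a1, with the value nearest 0 in each case without SA replicate 3. Of the 11 fibrillar genes 5 were higher and 6 lower in SS, with a median log2 fold change of -0.30 that was 0.13 without SA replicate 3 and -1.0 with the leukocyte covariate.

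Collagen IV, the network of basement membranes, was represented by its widespread pair of chains, and both were higher in every SS library than in any SA library. Col4a1 had 492, 633, 541 and 1052 CPM in SS libraries, against 201, 154, 361 and 377 CPM in SA libraries. Col4a2 had 191, 263, 290.0 and 466 CPM in SS libraries, against 101, 134, 121 and 148 CPM in SA libraries. SS replicate 4 was highest for both. The log2 fold changes were 1.31 for Col4a1 (SE 0.34, edgeR adjusted p = 0.595, DESeq2 adjusted p = 0.0546) and 1.27 for Col4a2 (SE 0.27, edgeR adjusted p = 0.411, DESeq2 adjusted p = 0.0130). Without each library in turn they ran from 1.026 to 1.513 for Col4a1 and from 0.9816 to 1.435 for Col4a2. With the leukocyte covariate they were 0.834 and 0.9085. These genes start head to head on chromosome 8 and overlap by 22 bases, Col4a1 at chr8:11198423-11312826 on the minus strand and Col4a2 at chr8:11312805-11449287 on the plus strand. Per length there was 1.82 to 2.52 times as much Col4a1 as Col4a2 in SS libraries and 1.12 to 2.92 times as much in SA libraries. The 4 chains of specialised basement membranes were scarce, at no more than 9 CPM in any library. Of these, Col4a4 and Col4a5 could be tested and had log2 fold changes of -1.03 (SE 1.26) and -0.85 (SE 1.53, 1.65 without SA replicate 2), while Col4a3 and Col4a6 were not tested.

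Pericytes wrap small vessels and share their basement membrane. Of 11 listed pericyte and smooth muscle markers, 10 had a higher fitted level in SS, where 49% of all tested genes did. With edgeR unadjusted p under 0.05, 5 of them were higher, where 4.03% of all tested genes were, and 0 passed the edgeR threshold. DESeq2 called 3 of these markers (Rgs5, Notch3 and Kcnj8) higher and 0 lower, where it called 0.914% of genes higher and 0.704% lower. Their summed level was 1514, 1314, 1834 and 6583 CPM in SS libraries, against 671, 806, 858 and 790.1 CPM in SA libraries, with SS replicate 4 highest, as for the collagen IV pair, and SS replicate 2 lowest of SS, unlike it. The groups did not overlap, but they did without Rgs5, a marker singled out after its values were seen, at 585 to 1598 CPM in SS and 301 to 598.5 CPM in SA libraries. Notch3 on its own did not overlap either, at 132.8 to 212.5 CPM in SS and 61.25 to 95.43 CPM in SA libraries. Endothelial markers, the other source of vessel basement membrane, summed to 224, 27.3, 40.0 and 36.9 CPM in SS libraries. In SA libraries they summed to 128, 89.1, 30.8 and 17.7 CPM, and 9 of 12 had a higher fitted level in SS. SS replicate 1, the highest here, was the lowest SS library for the collagen IV pair. Markers of fibroblasts and tendon cells summed to 224 to 467 CPM in SS and 91.5 to 158 CPM in SA libraries, with 7 of 10 tested higher. Here too the groups overlapped without a marker singled out after its values were seen. This was Fndc1, at 80.9 to 250 CPM in SS and 28.2 to 34.6 CPM in SA libraries. In Dpt, Thy1 and Ly6a, too, every SS library was above every SA library, as in 2.36% of all tested genes. With edgeR unadjusted p under 0.05, 4 fibroblast and tendon markers were higher and 0 lower, where 4.03% and 2.96% of all tested genes were. DESeq2 also called 4 higher and 0 lower, and the median log2 fold change of this list was 1.55. None of these lists had a marker at 0 in all libraries. Their part in the levels of any collagen gene was not tested.

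**Figure D4:**
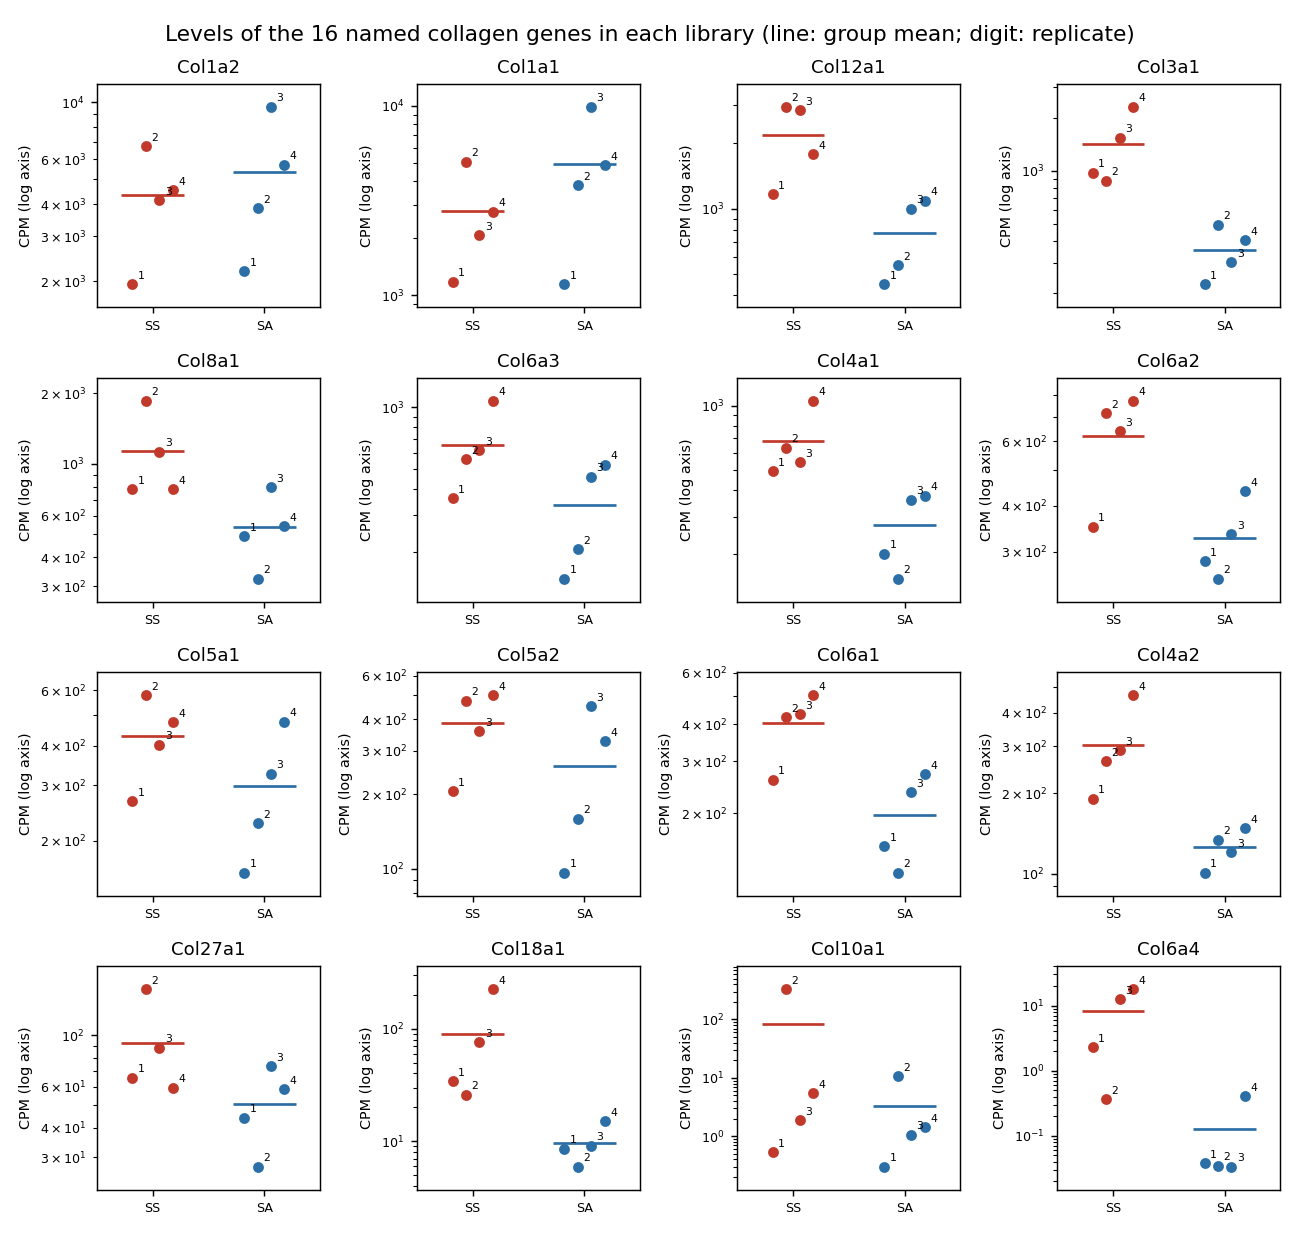
CPM (log axis, a separate scale for each gene) of 16 collagen genes in the SS libraries (left in each panel) and the SA libraries (right), ordered by mean level; the line is the group mean and digits are replicate numbers. The groups do not overlap for Col12a1, Col3a1, Col4a1, Col4a2 and Col18a1, and for Col10a1 SS replicate 2 is far above all other libraries.

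The multiplexins are basement membrane collagens too, and the C-terminal end of collagen XVIII is the source of endostatin. Col18a1 had 34.3, 25.9, 76.0 and 225 CPM in SS libraries, against 8.59, 5.92, 9.15 and 15.0 CPM in SA libraries. No SS library was as low as the highest SA library, and SS replicate 4 was the highest. Its log2 fold change was 3.22 (SE 0.66, edgeR adjusted p = 0.411, DESeq2 adjusted p = 0.000537), and 2.23 to 3.53 without each library in turn. Col15a1, its closest relative, had 3.34, 8.41, 10.9 and 74.6 CPM in SS libraries and 3.30, 3.57, 10.6 and 27.3 CPM in SA libraries. Replicate 4 was highest in both genotypes and the groups overlapped. Its log2 fold change of 1.12 (SE 0.97) turned to -0.57 without SS replicate 4.

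Of the FACIT genes, Col12a1 was both the most abundant and the only one whose groups did not overlap. Collagen XII coats collagen I fibrils in tendon, ligament and periosteum. Col12a1 had 1162.5, 2943, 2835 and 1774 CPM in SS libraries, against 448, 547.5, 999.5 and 1087 CPM in SA libraries. Its log2 fold change was 1.5 (SE 0.37, edgeR adjusted p = 0.523, DESeq2 adjusted p = 0.0327), 1.30 to 1.72 without each library in turn and 1.07 with the leukocyte level as a covariate. Col14a1, the related collagen XIV, averaged 50.4 ± 40.8 CPM in SS and 17.2 ± 9.19 CPM in SA (log2 fold change 1.55, SE 0.78), but SS replicate 1 at 3.97 CPM was below every SA library. Col16a1 averaged 42.7 ± 16.9 CPM in SS and 26.4 ± 17.1 CPM in SA (log2 fold change 0.69, SE 0.52), and Col20a1 4.52 ± 2.85 CPM in SS and 3.45 ± 2.99 CPM in SA (0.39, SE 0.93). Col22a1, a collagen of tissue junctions, had the lowest fold change of all members, with 5.91 ± 7.73 CPM in SS and 22.3 ± 21.2 CPM in SA (log2 fold change -1.92, SE 1.0, and -3.41 to -1.09 without each library in turn). Col19a1 and the 3 chains of collagen IX, the FACIT of cartilage, were not tested.

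All 3 common chains of collagen VI had a higher mean in SS. Col6a1 had 260.1, 423, 434 and 503 CPM in SS libraries, against 154, 126, 236 and 271 CPM in SA libraries. Col6a2 had 351, 716, 638 and 773 CPM in SS libraries, against 283, 254, 335 and 439 CPM in SA libraries. Col6a3 had 364, 561, 619 and 1072 CPM in SS libraries, against 149, 205, 460.0 and 527 CPM in SA libraries. In each of the 3, SS replicate 1 lay within the SA range and the other 3 SS libraries lay above it. The log2 fold changes were 1.04 for Col6a1 (SE 0.29, edgeR adjusted p = 0.604), 0.92 for Col6a2 (SE 0.27, edgeR adjusted p = 0.633) and 0.96 for Col6a3 (SE 0.43, edgeR adjusted p = 0.713). With the leukocyte covariate they were 0.62, 0.47 and 0.34, and Col6a3 was at 0.62 without SS replicate 4. These 3 chains assemble with each other, and the ratio of Col6a1 to Col6a2 per length was 0.569 to 0.714 in SS and 0.477 to 0.677 in SA libraries. Col6a1 and Col6a2 lie head to tail on chromosome 10 with 85161 bases between them, and Col6a3 is on chromosome 1.

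The alternative chains of collagen VI were far scarcer. Col6a4 had 65, 10, 354 and 556 counts in SS libraries, against 1, 1, 1 and 11 counts in SA libraries. SS replicates 1, 3 and 4 were above all SA libraries, and SS replicate 2 had 0.361 CPM, against 0.404 CPM in SA replicate 4. Its log2 fold change of 5.98 (SE 1.45, edgeR adjusted p = 0.520, DESeq2 adjusted p = 0.000373) rests on the 14 counts of the SA libraries. Col6a5 had 11.1, 114, 20.0 and 9.75 CPM in SS libraries and 9.75, 2.60, 21.0 and 16.6 CPM in SA libraries. SS replicate 2 was above all other libraries, and the remaining SS libraries lay within the SA range. The log2 fold change of 1.63 (SE 0.85) was 0.12 without SS replicate 2. Col6a6 had counts in SS replicate 3 and SA replicate 4 only, 32 and 14. The 3 genes are neighbours on chromosome 9.

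Col8a1, the main network collagen here, makes short-chain collagen VIII of vessel walls and subendothelial matrix. Col8a1 had 781, 1855, 1126 and 779.6 CPM in SS libraries, against 492, 324, 795 and 542 CPM in SA libraries. Of the SA libraries only replicate 3 reached the lower SS libraries, and the log2 fold change was 1.08 (SE 0.34, unadjusted p = 0.00985, edgeR adjusted p = 0.695). Per length it was the third collagen after the chains of collagen I over all libraries, at 222 CPM per kb in SS and 105 in SA. Its partner chain Col8a2 had 0.176, 37.6, 5.39 and 10.1 CPM in SS libraries and 4.84, 1.49, 2.27 and 7.19 CPM in SA libraries. The SS libraries held both the lowest and the highest value, and the log2 fold change of 1.75 (SE 1.10) was 0.40 without SS replicate 2.

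Col10a1, the marker collagen of hypertrophic cartilage in growth plates, came almost entirely from SS replicate 2. It had 15, 9185, 53 and 168 counts in SS libraries, against 8, 307, 32 and 39 counts in SA libraries. Replicate 2 was highest in each genotype and the groups overlapped. The log2 fold change of 4.66 (SE 1.88, unadjusted p = 0.0315, edgeR adjusted p = 0.695) turned to -0.36 without SS replicate 2. Nt5dc1, which shares exonic bases with Col10a1 on the opposite strand, had 7.55 CPM in that library and 9.20 to 20.5 CPM in the others. Some other cartilage collagens were also highest in SS replicate 2, while Col11a1 (432 CPM there) and Col11a2 (44.9 CPM) were highest in SA replicate 3, at 700.2 and 147 CPM. Col2a1 had 411 CPM there, while SS replicates 1, 3 and 4 had 24.5 to 67.7 CPM and SA libraries 50.8 to 353 CPM. Col9a1 had 27, 367, 0 and 0 counts in SS libraries and 0 counts in each SA library, where 3 counts, the limit that a count of 0 allows, are 0.10 to 0.112 CPM. Col9a3 had 199 counts in SS replicate 2 and 127 in SA replicate 2, and 3 or fewer in the remaining libraries. Col9a2 was highest in SA replicate 1, with 44 counts, against 31 in SS replicate 2 and 9 or fewer in the remaining libraries. The 9 chondrocyte markers in the table summed to 34.3, 257, 62.2 and 78.0 CPM in SS libraries and 32.6, 32.3, 86.1 and 61.8 CPM in SA libraries. Acan, the main cartilage proteoglycan, reached 31.8 CPM in SS replicate 2 and no more than 4.08 CPM elsewhere. Hapln1, the link protein that binds it to hyaluronan, reached 58.7 CPM there and no more than 0.220 CPM elsewhere. Comp, at 155 CPM there and no more than 69.8 CPM elsewhere, and the scarce Matn1 and Matn3 were also highest in SS replicate 2. Sox9, Cnmd, Epyc and Ucma were not highest there. Sox9 had 9.35 CPM against 19.2 CPM in SS replicate 4, and Cnmd 0.253 CPM against 4.71 CPM in SA replicate 3. Their part in the collagen values of that library was not tested.

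**Figure D5:**
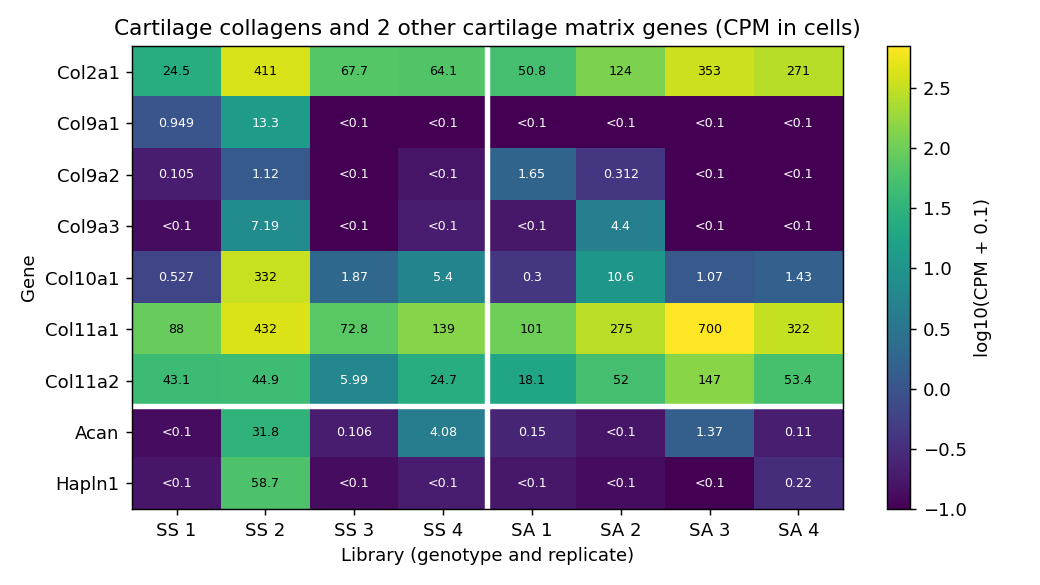
CPM of cartilage and bone collagens and of 2 other cartilage matrix genes in each library, SS libraries left and SA libraries right, coloured on a log scale with the CPM written in each cell. SS replicate 2 holds the highest Col10a1, at 332 CPM, and the highest Acan and Hapln1.

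The remaining members were scarce or uneven. Among transmembrane collagens, Col23a1 averaged 21.6 ± 11.6 CPM in SS and 8.30 ± 5.28 CPM in SA (log2 fold change 1.38, SE 0.75). Col25a1 averaged 20.3 ± 8.24 CPM in SS and 29.2 ± 14.9 CPM in SA (-0.52, SE 0.45), and Col13a1 3.45 ± 4.13 CPM in SS and 7.20 ± 4.30 CPM in SA (-1.06, SE 0.89). In all 3 the groups overlapped, and Col17a1, of skin attachment sites, was not tested and had at most 36 counts in any library. Col26a1 had 36.5 CPM in SS replicate 4, with no other library above 4.51 CPM. Its log2 fold change of 2.04 (SE 1.26) turned to -0.44 without SS replicate 4. Col7a1, the anchoring fibril collagen, was not tested by edgeR. It had 73, 118, 5 and 0 counts in SS libraries and 0, 0, 0 and 1 in SA libraries, with a DESeq2 adjusted p of 0.0379. Col28a1 had 0, 4, 3 and 61 counts in SS libraries and 0 in each SA library.

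The genes that make, cut and bind collagen mostly had a higher fitted level in SS. Of 78 symbols listed for these steps, some of them older names of genes also listed, 72 were in the count table and 67 were tested. A higher fitted level in SS was found for 56 and a lower one for 11, where 49% of all tested genes were higher. The median log2 fold change was 0.47. With the leukocyte covariate 42 of 67 were higher and the median was 0.13. The 10 markers of the sorted stromal cells also had a higher fitted level in 9 cases (median 0.28), with sums of 21690.0 to 31250.0 CPM in SS and 14720.0 to 31930.0 CPM in SA libraries, while the 15 leukocyte genes were lower, and their part was not tested. The count with unadjusted p under 0.05 was 9 higher and 1 lower, where 4.03% of all tested genes were higher and 2.96% lower at that p, and 0 passed edgeR's quasi-likelihood test with Benjamini-Hochberg adjustment. By step, 16 of 18 genes of prolyl and lysyl modification were higher (median 0.50), 9 of 10 of folding and export (0.33), 5 of 7 of procollagen cleavage (0.38), 6 of 6 of crosslinking (0.60), 14 of 16 of the partners of fibrils (0.38) and 6 of 10 receptors (0.41). DESeq2 called 4 of them higher, where it called 0.914% of all genes higher. P4ha3, a catalytic subunit of collagen prolyl 4-hydroxylase, had 6.82, 51.2, 8.14 and 20.7 CPM in SS libraries, against 1.2, 3.36, 0.334 and 1.91 CPM in SA libraries (log2 fold change 3.67, SE 0.86, edgeR adjusted p = 0.520, DESeq2 adjusted p = 0.00161). Itga1, the integrin chain that binds collagen IV, had 490.4, 748, 709 and 721 CPM in SS libraries, against 338.5, 299.7, 408 and 405 CPM in SA libraries (0.88, SE 0.20, edgeR adjusted p = 0.520, DESeq2 adjusted p = 0.0133). Aspn, a small leucine-rich proteoglycan that binds collagen I, averaged 132 ± 95 CPM in SS and 32.8 ± 13.5 CPM in SA. Thbs2, a matricellular protein that affects fibril assembly, averaged 260.0 ± 119 CPM in SS and 85.0 ± 28.1 CPM in SA. In these 4 genes, picked for their DESeq2 calls, every SS library was above every SA library, as in 2.36% of all tested genes. Creb3l1, a transcription factor needed for collagen I output in bone, was the 1 gene lower with unadjusted p under 0.05, at 56.0 ± 17.8 CPM in SS and 104 ± 48 CPM in SA (log2 fold change -0.89, SE 0.36, edgeR adjusted p = 0.695).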

How the data were processed

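RNA of sorted marrow stromal cells was measured in 8 libraries, 4 per genotype, from 16 deposited samples (2 lanes each). The authors deposited raw counts per gene symbol and a normalized table, which was not used here. Tools listed in the submitters' processing notes, without roles, are STAR, featureCounts, bcl2fastq and DESeq2, and builds are GRCm38 and mm10. Neither annotation nor strand setting is stated there, so overlapping genes cannot be told apart. 13 collagen genes share exonic bases with another gene, 10 of them on the opposite strand.

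The test was edgeR's robust quasi-likelihood F test (version 4.0.16, R 4.3.3) on these counts, after filterByExpr and TMM scaling, with Benjamini-Hochberg adjustment over 17316 genes. DESeq2 1.42.0 and limma-voom (limma 3.58.1) were alternatives, with other scalings and filters, each library left out, a replicate block, a leukocyte covariate and 2 subsets of libraries. The fits were also run on simulated counts, drawn independently for each library with the spread that edgeR fitted to each gene. Leukocyte, sex and single-library differences were not part of that simulation, so it does not cover them. A standard error is the log2 fold change divided by the root of F. CPM per kb used the transcript with the longest coding sequence in GENCODE M21 (GRCm38), matched by symbol for all 44 members.

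Library values are given for the 10 collagen genes with the highest mean level, those with unadjusted p under 0.05, and those without overlap and a mean of at least 1 CPM. This made 16 genes. Pathway genes named are those DESeq2 called and the 1 lower gene, chosen after their values were seen. The members, classes and lists were chosen with earlier results of these data known. Promoter entries in RefSeq matched 35 members. Depth was 24797857 to 31117007 counts per library, and limits from 0 counts cover counting error only.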

Additional observations from a re-analysis of the deposited data

Results flagged for a closer look

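Of 81 sets of 4 libraries of 1 genotype, 18 held a collagen gene value separated from the other 3 by a gap above Dixon's critical share of the whole range, where chance flags about 1 in 20 sets of normally distributed values. Scarce genes with 3 libraries at or near 0 exceed that gap more readily, so the count of flags shows nothing beyond the values themselves. In SS replicate 2 the highest values were 332 CPM for Col10a1 (next SS library 5.40), 411 for Col2a1 (67.7), 114 for Col6a5 (20.0), 13.3 for Col9a1 (0.949), 7.19 for Col9a3 (0.0965), 1.30 for Col17a1 and 1.12 for Col9a2. In SS replicate 4 they were 74.6 CPM for Col15a1 (next 10.9), 36.5 for Col26a1 (3.51) and 1.96 for Col28a1. SS replicate 3 had 1.34 CPM of Col4a3 and 1.13 of Col6a6, and SS replicate 1 was lowest in Col23a1, at 4.43 CPM (next 25.1). Among SA libraries, replicate 2 had 10.6 CPM of Col10a1 (next 1.43), 8.83 of Col4a5 and 4.40 of Col9a3, replicate 3 had 3.57 CPM of Col4a3 and replicate 1 had 2.47 CPM of Col19a1.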

How the results depend on the processing

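Of the 34 tested collagen genes, 0 passed edgeR's threshold in any alternative with edgeR or limma-voom, and DESeq2 called 5 (6 of all members, with Col7a1) and 4 of the pathway genes. Leaving out each library in turn gave 21 to 25 genes higher in SS and a median log2 fold change of 0.47 to 1.06. With the leukocyte covariate the median was 0.23 for all members, 0.47 for collagen VI and 0.81 for the multiplexins. The fibrillar median (-0.30) was -0.59 to 0.13 over single libraries, with 0.13 without SA replicate 3, and -1.0 with that covariate. Medians of small classes moved most, and the number of members tested also differed between settings. For basement membrane genes it was 4 in the main fit and with limma-voom, 3 at 1 CPM or more in 4 libraries and 5 without SS replicate 2. The part of this in the medians was not tested. That of basement membrane genes (0.21) was 1.045 with limma-voom, 1.27 at 1 CPM or more in 4 libraries, 0.99 without SA replicates 1 and 2 and SS replicate 1, 1.31 without SS replicate 2 and SA replicate 3 (chosen after seeing the data), and -0.33 to 1.33 over single libraries left out. The network median (1.75) was 0.22 without SS replicate 2 and SA replicate 3 and 0.40 to 2.22 over single libraries, with 0.40 without SS replicate 2. That of multiplexins (2.17) ran from 0.83, without SS replicate 4, to 2.79 over single libraries. The transmembrane median (-0.52) was 0.42 with DESeq2, 0.43 with no filter and 0.25 without SA replicates 1 and 2 and SS replicate 1. That of the other 2 genes (2.04) was 4.21 with DESeq2 and 4.52 with no filter. Over single libraries it ran from -0.44, without SS replicate 4, to 2.47. More genes enter without the filter. The difference in FACIT share was 7.92 percentage points in CPM without length, against 4.39 per kb. Over single libraries left out and the covariate, the sign turned for 10 of the 34 genes. Among the 16 genes given by library these were Col10a1 (-0.36 without SS replicate 2 and -0.67 without SA replicate 3 as well, of -0.36 to 6.50 over single libraries), Col1a2 (0.13 without SA replicate 3, of -0.59 to 0.13) and Col5a2 (-0.073 with the covariate). Among the others, Col20a1 was at -0.11 without SS replicate 2. The SS over SA log2 ratio of the summed level ran from -0.16 to 0.51 over single libraries. Replicate numbers did not pair the libraries (correlations of same-numbered libraries 0.222, -0.15, -0.0201 and 0.143), and with the replicate block 0 collagen genes were called and the basement membrane median was 1.2. Scarce members are limited by depth.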
